A study of Mus musculus with 14 samples.

Results

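Foxp3 is the transcription factor that specifies regulatory T (Treg) cells, which restrain other immune cells. It acts with cofactors at regulatory elements, many of which are already open before Foxp3 is expressed. ATAC-seq measures how open chromatin is, since the Tn5 transposase cuts and tags the DNA it can reach. The comparison described here is between Treg cells after 7 and after 3 days of Foxp3 degradation. It addresses what changes in chromatin accessibility as the loss of Foxp3 lasts longer.

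The libraries came from Foxp3AID mice carrying R26TIR1(F74G), with 4 libraries after 3 days and 3 after 7 days of 5-ph-IAA. The Foxp3AID allele joins Foxp3 to a degron that responds to auxin and also carries a ZsGreen reporter and Cre, and TIR1(F74G) is the ubiquitin ligase receptor through which 5-ph-IAA marks the fusion protein for degradation. TIR1 lies behind a loxP-flanked STOP cassette, so that it is made in cells with Foxp3-driven Cre. The R26WT mice (4 libraries on day 3 and 3 on day 7) carried the same Foxp3AID allele and received the same ligand for 3 or 7 days, but lack TIR1. All libraries were made from Treg cells of spleen and lymph nodes. The labels give neither age, sex nor activation state, while the study describes heterozygous Foxp3AID/WT females, in which Treg cells using the wild-type allele keep Foxp3, for its accessibility work on day 7. No untreated R26TIR1(F74G) library is in this comparison. The count table names a different mouse for each library. Accessibility was measured as counts in windows of 201 bases. Of 240778 windows in the table, 239163 averaged at least 10 counts across the 7 R26TIR1(F74G) libraries, and all of these were tested. The same rule kept 232991 windows over the 7 R26WT libraries.

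Counts in windows ranged from 5653289 to 18728202 per R26TIR1(F74G) library on day 3 and from 16655824 to 20184487 on day 7. Replicate 1 on day 3 was the least deep of the 7. No libraries were identical, and log2 CPM correlated between 0.922 and 0.973 over the 21 pairs of libraries. Chi-square per degree of freedom was between 1.7 and 2.46 for the 9 pairs within a day, which exceeds the error of counting reads alone. Windows at start sites had a median of 9.77 CPM over 13 Treg cell genes, 2.29 CPM over 4 B cell genes, 3.49 CPM over 4 myeloid genes and 16.7 CPM over all 12218 genes with such a window. The CD8 T cell genes Cd8a and Cd8b1 had 1.28 and 12.7 CPM, the second above the median of Treg cell genes. The Treg cell genes Foxp3, Tnfrsf18 and Itgae had no window at the start site, nor had the B cell markers Cd79a and Ms4a1 or the myeloid markers Lyz2 and Csf1r. In bulk libraries, a shift in the share of cells that are open at a site and a shift in accessibility per cell cannot be told apart.

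No window passed the test between day 7 and day 3. Of the 239163 windows, 0 (0%) had an adjusted p under 0.05 (Benjamini-Hochberg) by the quasi-likelihood test of edgeR, and the smallest adjusted p was 0.0602. DESeq2 called 2 windows, both lower on day 7. An unadjusted p under 0.05 was found for 16643 windows (6.96%), of which 6965 (2.91%) were higher and 9678 (4.05%) were lower on day 7. With total counts in place of TMM factors, this split was 5016 higher and 11860 lower. The values of the 2 days did not overlap in 17200 windows (7.19%). The count of calls depended on 1 library, since leaving out replicate 2 on day 3 gave 364 called windows, 48 higher and 316 lower on day 7, whereas leaving out any other single library gave between 0 and 5.

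In R26WT mice, 7 windows (0.003%) passed the same test between days and 12223 (5.25%) had an unadjusted p under 0.05. DESeq2 called 0 windows in R26WT mice. The interaction of day and genotype, which tests whether the difference between days differed between genotypes, gave 0 windows (0%) by edgeR and by DESeq2, with 15221 (6.32%) at an unadjusted p under 0.05. The median 95% interval of a fold change between days in R26TIR1(F74G) mice reached 0.56 (log2) to either side over all windows, 0.77 over windows with a mean count under 20 and 0.24 over windows with a mean count over 200. These intervals are not adjusted for the number of windows tested, so differences larger than these could also fail the test. A window near Csl with a log2 fold change of 1.00, for example, had an edgeR adjusted p of 0.0776.

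Windows were also summed by gene, over all windows within 100 kb of a start site, which narrowed the median interval to 0.21 to either side. Of 15955 genes, 0 (0%) passed edgeR's test and DESeq2 called 48, of which 42 were lower on day 7. An unadjusted p under 0.05 was found for 1711 genes (10.7%), with 741 (4.64%) higher and 970 (6.08%) lower on day 7. The values of the 2 days did not overlap for 1693 genes (10.6%). For R26WT mice, edgeR called 0 of 15936 genes (0%) and DESeq2 6, and 804 (5.05%) had an unadjusted p under 0.05. The interaction gave 0 of 15959 genes (0%) by edgeR and 7 by DESeq2, which gave no adjusted p for 5570 of them, with 1598 (10%) at an unadjusted p under 0.05. Without replicate 2 on day 3, edgeR called 13 genes in R26TIR1(F74G) mice, all lower on day 7.

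The differences between days were ordered by position and by how open a window was. A promoter window here is centred within 1 kb of a start site, an intragenic window lies elsewhere within a gene, and an intergenic window lies outside genes. The median log2 fold change was 0.06 over 55452 promoter windows, -0.03 over 98085 intragenic windows and -0.06 over 85626 intergenic windows. Among promoter windows, 3263 were higher and 1143 lower at an unadjusted p under 0.05, while among intergenic windows 1680 were higher and 4696 lower. R26WT mice had the opposite order, with a median of -0.03 over promoter windows and 0.04 over intergenic windows. By R26WT library, the median deviation of promoter windows from the mean of 14 libraries was -0.02, 0.02, 0.06 and 0.06 (log2) on day 3. It was 0.04, 0.04 and -0.10 on day 7. Replicates 1 and 2 on day 7 thus lay within the range of day 3, and only replicate 3 lay below it. Over intergenic windows, too, only replicate 3 on day 7 (0.06) lay outside the range of day 3.

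With distance to the nearest start site, the median in R26TIR1(F74G) mice went from 0.06 within 1 kb to -0.05 at 50 to 100 kb, -0.12 at 100 to 500 kb and -0.28 over 500 kb. In the most distant group, 882 of 5268 windows were lower and 22 higher at an unadjusted p under 0.05. The same distance groups in R26WT mice had medians between -0.03 and 0.07, but over other windows, since each genotype was filtered on its own libraries. The most distant group held 4278 windows in R26WT mice. A window could pass the R26TIR1(F74G) filter through high counts on day 3 alone, and the part of this in the -0.28 was not tested. Over the 5351 windows of this group in the fit of all 14 libraries, the median interaction was -0.34. With mean count, the median in R26TIR1(F74G) mice went from -0.15 under 20 counts to 0.09 over 200 counts. Promoter windows with a mean count under 20 had a median of -0.18, close to the -0.18 of intergenic windows in the same range of counts. Leaving out each library in turn kept the order of the 3 classes, with medians between 0.03 and 0.10 over promoter windows and between -0.08 and -0.03 over intergenic windows.

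**Figure D1:**
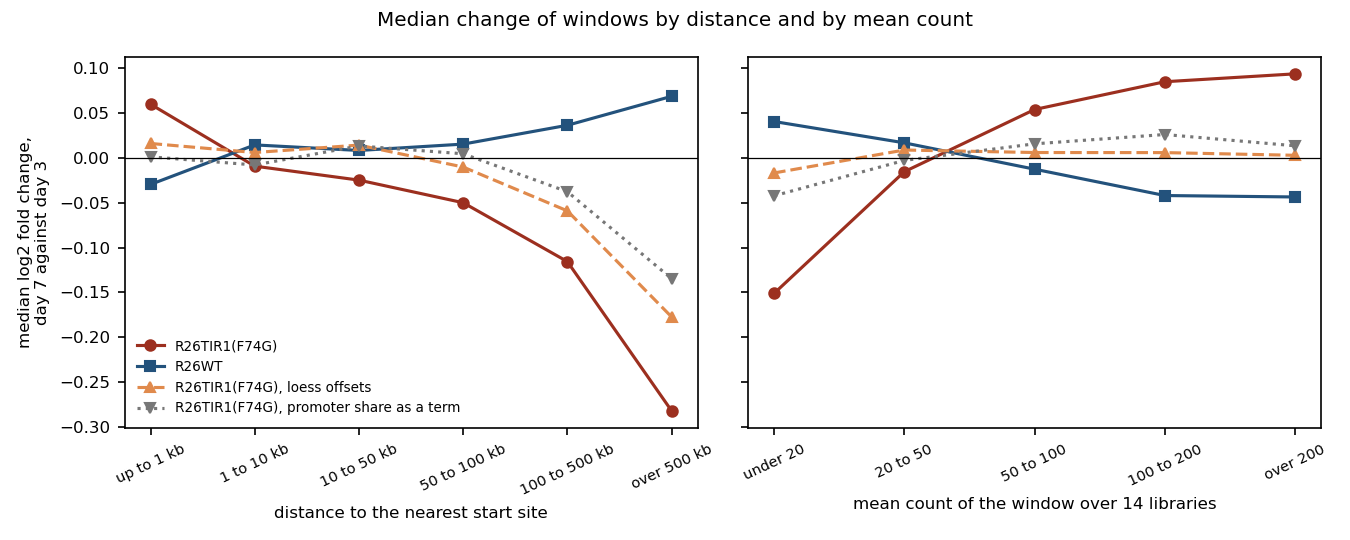
Median log2 fold change of windows between day 7 and day 3 (vertical axis) by distance to the nearest start site (left) and by mean count over 14 libraries (right). Circles are R26TIR1(F74G) mice, squares R26WT mice, and triangles R26TIR1(F74G) mice with count-dependent loess offsets or with the promoter share of each library as a term. The R26TIR1(F74G) line ends at -0.28 over 500 kb, and at -0.18 and -0.13 in the other fits.

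The make-up of the libraries is given beside this gradient. The share of counts in promoter windows was 49.9%, 52.4%, 48.4% and 50.2% in the R26TIR1(F74G) mice on day 3 and 52.2%, 51.2% and 52.5% on day 7. Replicate 2 on day 3 lay within the range of day 7, and the other 3 libraries lay below it. The difference between the means of 50.2% ± 1.64 (SD, n = 4) and 51.9% ± 0.65 (SD, n = 3) did not pass the test (p = 0.171, exact permutation test, two-sided). In R26WT mice the share was between 50.9% and 53.0% on day 3, and it was 52.0%, 52.2% and 48.4% on day 7, where the low value was replicate 3, the least deep control library. With loess offsets, which remove a count-dependent trend from each library, the median over promoter windows was 0.02 and that over intergenic windows -0.02. With promoter share as a term in the fit, these were 0.00 and -0.01, but that share is itself a sum over the windows compared, so the term draws these medians towards 0 by construction. Depth had means of 12249930 ± 5342212 (SD, n = 4) and 18524328 ± 1773534 (SD, n = 3) counts on day 3 and day 7 (p = 0.0857, exact permutation test). The part of library make-up in the gradient was not tested.

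The share of counts on chromosome X was compared in the same way. It was 2.30%, 2.32%, 2.42% and 2.29% on day 3 and 2.27%, 2.22% and 2.2% on day 7, and the 2 days did not overlap. The difference was -0.10 percentage points (p = 0.0286, exact permutation test, two-sided), which is the smallest p that 35 arrangements allow. After adjustment over 3 library measures (depth, promoter share and this share), the p of this permutation test was 0.0857. Other measures, such as the intergenic share, were tested as well, and an adjustment over all of them would give a higher value. In R26WT mice the share was 2.23% ± 0.05 (SD, n = 4) on day 3 and 2.2% ± 0.05 (SD, n = 3) on day 7 (p = 0.314, exact permutation test). The median log2 fold change over 6438 windows of chromosome X was -0.07, and it was -0.01 over 232725 autosomal windows. This was the lowest of the 20 chromosomes, with chromosome 13 next at -0.06, and chromosome X was also the lowest in R26WT mice, at -0.03. In R26TIR1(F74G) mice, the median over chromosome X was below that over autosomes in 14 of 15 groups of windows of like class and mean count. In R26WT mice it was also below in most of these groups. By class, the R26WT medians over chromosome X and autosomes were -0.063 and -0.028 (promoter), -0.031 and -0.001 (intragenic) and -0.001 and 0.037 (intergenic). Among windows of chromosome X in R26TIR1(F74G) mice, 88 were higher and 470 lower on day 7 at an unadjusted p under 0.05, against 6877 and 9208 of the autosomal windows. Mouse names begin with AC or E, a mark that is not explained in the labels. The E mice on day 7 were represented by 1 library, too few for a comparison within that mark. With the mark as a term, edgeR called 0 windows. Foxp3 itself lies on this chromosome.

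**Figure D2:**
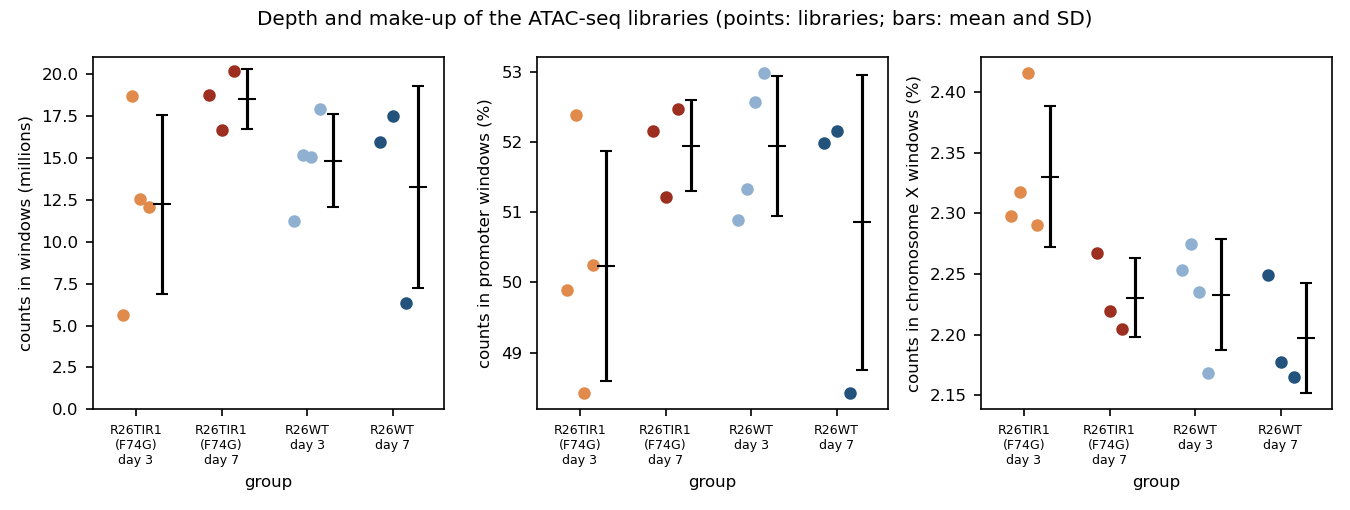
Counts in windows (left), share of counts in promoter windows (middle) and share in windows of chromosome X (right), by group. Points are libraries and bars are mean and SD. On chromosome X, the 4 R26TIR1(F74G) libraries on day 3 lie between 2.29% and 2.42% and the 3 on day 7 between 2.2% and 2.27%.

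The base composition of start sites was taken from RefSeq promoter sequences of GRCm38.p6, from 250 bases before to 50 bases after each start site. CpG dinucleotides, which are dense at the promoters of broadly active genes and sparse at many tissue-specific ones, were counted in 10378 promoters with a tested window centred in the 300 bases. The 4 sequences below, chosen for both CpG and direction and so no sign of a relation between them, show what a CpG-rich and a CpG-poor promoter look like. They are the promoters with the smallest unadjusted p among those with more than 25 CpG and a higher value on day 7 (Ubb and Arl4c) and among those with at most 5 CpG and a lower value on day 7 (Adcy7 and Zfp97). Each is written 5′ to 3′ on the strand of its gene with CpG in capitals.
Ubb: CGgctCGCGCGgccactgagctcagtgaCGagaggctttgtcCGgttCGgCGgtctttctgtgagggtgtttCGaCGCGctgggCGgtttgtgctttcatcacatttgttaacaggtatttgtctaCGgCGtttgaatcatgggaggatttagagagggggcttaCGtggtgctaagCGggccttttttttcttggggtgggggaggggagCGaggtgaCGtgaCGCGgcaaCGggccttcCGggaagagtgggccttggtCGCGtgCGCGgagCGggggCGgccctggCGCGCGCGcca
Arl4c: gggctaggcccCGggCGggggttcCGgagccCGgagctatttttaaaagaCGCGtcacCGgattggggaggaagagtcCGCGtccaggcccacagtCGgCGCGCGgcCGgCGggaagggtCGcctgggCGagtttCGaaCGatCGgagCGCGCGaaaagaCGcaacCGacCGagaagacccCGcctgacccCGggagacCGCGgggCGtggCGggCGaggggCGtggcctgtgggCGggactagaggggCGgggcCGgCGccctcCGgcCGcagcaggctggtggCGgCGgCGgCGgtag
Adcy7: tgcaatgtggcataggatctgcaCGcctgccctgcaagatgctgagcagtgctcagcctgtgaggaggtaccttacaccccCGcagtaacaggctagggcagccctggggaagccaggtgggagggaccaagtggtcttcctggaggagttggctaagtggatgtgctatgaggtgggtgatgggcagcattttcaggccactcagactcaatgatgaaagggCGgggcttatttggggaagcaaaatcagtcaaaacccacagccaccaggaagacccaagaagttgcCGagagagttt
Zfp97: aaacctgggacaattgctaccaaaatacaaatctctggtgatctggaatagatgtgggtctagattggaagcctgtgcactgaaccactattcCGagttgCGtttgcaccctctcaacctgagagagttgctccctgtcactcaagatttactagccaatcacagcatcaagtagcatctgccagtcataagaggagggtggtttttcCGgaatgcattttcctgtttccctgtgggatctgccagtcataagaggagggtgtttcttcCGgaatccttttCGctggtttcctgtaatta
Ubb encodes a ubiquitin precursor, and its promoter at chr11:62551481-62551780 held 32 CpG. Its window had 28.8, 34.0, 24.1 and 28.6 CPM on day 3 and 43.4, 34.0 and 37.9 CPM on day 7, so the lowest library of day 7 and the highest of day 3 both stood at 34.0 CPM. The log2 fold change was 0.41 ± 0.11 (SE; edgeR adjusted p = 0.328). Arl4c, a small GTPase gene, with 44 CpG at chr1:88702142-88702441, had 15.8, 18.1, 13.2 and 14.6 CPM on day 3 and 19.1, 21.6 and 22.4 CPM on day 7. The days did not overlap for Arl4c, at a log2 fold change of 0.44 ± 0.13 (SE). Adcy7, an adenylate cyclase gene, with 4 CpG at chr8:88293954-88294253, had 4.14, 3.97, 3.58 and 3.22 CPM on day 3 and 2.30, 2.03 and 2.78 CPM on day 7. Zfp97, a zinc finger gene, with 5 CpG at chr17:17121133-17121432, had 59.0, 45.5, 43.7 and 44.4 CPM on day 3 and 38.8, 38.9 and 37.8 CPM on day 7. None of the 4 windows passed the test.

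Over all promoters of this kind, the median log2 fold change was 0.02 at 0 to 5 CpG (853 windows), 0.04 at 6 to 15 (2450), 0.08 at 16 to 25 (3414) and 0.06 at over 25 (3661). In R26WT mice the medians were -0.02, -0.02, -0.04 and -0.04 in the same order. The CpG-rich promoters also had the higher mean counts, with a median of 315 against 50.5 at 0 to 5 CpG. By library, the median deviation of the promoters with over 25 CpG from the mean of all 14 libraries was 0.02, 0.04, -0.21 and -0.08 (log2) on day 3 and -0.02, -0.02 and 0.07 on day 7. Replicate 3 on day 3 was therefore the lowest at CpG-rich promoters, and replicates 1 and 2 on day 3 lay within the range of day 7.

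The windows with the smallest p are given as values, since none passed the test. Of the 10 with a higher value on day 7, 9 are described here, near Csl, Tex14, Nfkbiz, Pds5a and Zfp692 and in the promoters of Trim65, H1f2 and Klf2, with 2 windows near Csl. An intergenic window 159661 bases from Csl (chr10:99599897-99600098 in mm10) had 3.78, 2.84, 3.06 and 3.38 CPM on day 3 and 6.42, 6.56 and 6.07 CPM on day 7. All day 7 values were above those of day 3, and the log2 fold change was 1.00 ± 0.18 (SE; edgeR adjusted p = 0.0776). The R26WT mice had 5.45, 4.50, 3.62 and 3.07 CPM on day 3 and 6.59, 4.77 and 4.2 CPM on day 7, which overlap. Csl encodes a citrate synthase-like protein, and the neighbouring window at this site had a log2 fold change of 0.70 ± 0.14 (SE).

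Klf2, a transcription factor of resting T cells that promotes their exit from lymphoid organs, had a promoter window (chr8:72319171-72319372) with 23.7, 32.6, 21.2 and 35.1 CPM on day 3 and 41.8, 36.1 and 48.6 CPM on day 7. The lowest library of day 7 was just above the highest of day 3. The log2 fold change was 0.57 ± 0.13 (SE; edgeR adjusted p = 0.155), against 0.13 in R26WT mice. With promoter share as a term it was 0.30. H1f2, a linker histone gene, had 18.2, 22.7, 19.2 and 19.9 CPM on day 3 and 26, 29.4 and 32.4 CPM on day 7 in its promoter window. Its log2 fold change was 0.54 ± 0.12 (SE), against 0.02 in R26WT mice.

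Some of these windows had higher values on day 7 in both genotypes. A window 29338 bases from Nfkbiz, which encodes the nuclear NF-kB regulator IκBζ, had 2.70, 2.84, 2.53 and 2.49 CPM on day 3 and 5.08, 4.65 and 5.16 CPM on day 7 in R26TIR1(F74G) mice. In R26WT mice it had 2.86, 3.18, 3.62 and 3.01 CPM on day 3 and 6.52, 4.83 and 5.40 CPM on day 7. The days did not overlap in either genotype. The log2 fold changes were 0.91 ± 0.20 (SE; edgeR adjusted p = 0.133) and 0.82 (adjusted p = 0.396), and their difference of 0.09 had an adjusted interaction p of 0.977. A window within Tex14, a gene of germ cell bridges, had 9.35, 7.89, 7.23 and 9.65 CPM on day 3 and 14.5, 11.6 and 16.8 CPM on day 7. Its log2 fold change was 0.77 in R26TIR1(F74G) mice and 0.59 in R26WT mice.

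The 10 windows with a lower value on day 7 were mostly distal and little open. All were intergenic or intragenic, 8 of them had a mean count under 25, and their log2 fold changes were between -1.05 and -3.60. A window 21681 bases from Pate13 (chr9:35886642-35886843) had 2.88, 0.644, 2.16 and 1.45 CPM on day 3 and 0, 0.298 and 0.101 CPM on day 7. The count of 0 in replicate 1 on day 7 allows up to 0.160 CPM, where 3 counts are taken as the limit and counting error only is covered. In R26WT mice the window had 0.866, 0.198, 0.546 and 0.826 CPM on day 3 and 0.517, 0.698 and 2.55 CPM on day 7. The highest values were in replicates 1 and 3 on day 3 and, among controls, in replicate 3 on day 7, which are libraries with a low promoter share. Replicate 1 on day 3 (5653289 counts) and replicate 3 of the R26WT mice on day 7 (6348754 counts) were also the least deep of their genotypes. The window had a mean count of 11.7 over the R26TIR1(F74G) libraries. The fitted log2 fold change was -3.60 ± 0.59 (SE; edgeR adjusted p = 0.0602), and over its 7 fits with 1 library left out it was between -4.76 and -3.02.

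The windows near S100a7l2, Triqk, Lama2, Zfp516 and Dcaf12l2 and within Slc4a10 had their highest value on day 3 in replicate 1, and that near Mrps30 in replicate 3. S100a7l2 had 4.32, 0.966, 3.13 and 1.53 CPM on day 3 and 0.428, 0.656 and 0.354 CPM on day 7. Near Mrps30, a mitochondrial ribosomal protein gene, the values were 7.37, 0.751, 8.5 and 3.86 CPM on day 3 and 1.44, 0.894 and 0.607 CPM on day 7, and they overlapped. With promoter share as a term, its log2 fold change went from -2.27 to -0.61. Pifo, a gene of primary cilia, was different in level. Its intragenic window (chr3:106003556-106003757) had 6.29, 8.42, 6.04 and 5.07 CPM on day 3 and 2.73, 3.10 and 3.64 CPM on day 7. The log2 fold change was -1.05 ± 0.19 (SE; edgeR adjusted p = 0.0776), and it was -1.25 with promoter share as a term and -0.39 in R26WT mice.

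**Figure D3:**
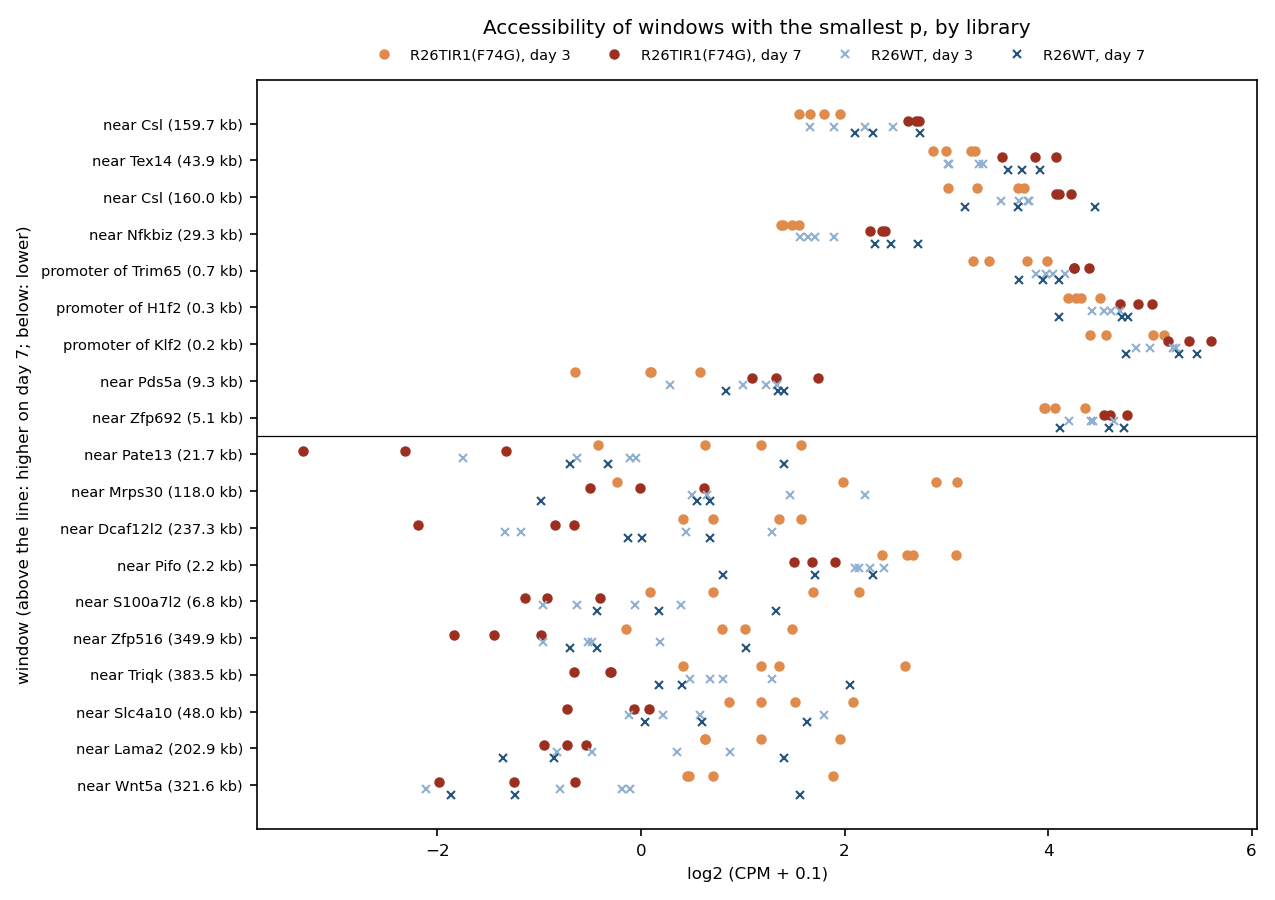
Accessibility in log2 (CPM + 0.1) of 19 windows among the 20 with the smallest p between day 7 and day 3, with each library as a point (R26TIR1(F74G)) or cross (R26WT). Names give the nearest gene and the distance to its start site. Above the line, the R26TIR1(F74G) libraries of day 7 lie to the right of those of day 3, and below it they lie to the left of most of day 3.

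The 364 windows called without replicate 2 on day 3 were of the same 2 kinds. Of these, 357 had an unadjusted p under 0.05 with all 7 libraries, so they are no separate support. The 48 higher on day 7 held 35 promoter windows, with a median log2 fold change of 0.65. Among all 237414 windows of that fit, 55297 were promoter windows. The 316 lower on day 7 held 4 promoter, 96 intragenic and 216 intergenic windows, at a median distance of 119048.5 bases from a start site and with a median mean count of 14.4. In R26WT mice the median log2 fold change over those 316 windows was 0.17.

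By gene, the smallest p belonged to genes lower on day 7. Dll1, which encodes a Notch ligand, had 43.5, 49.5, 49.0 and 47.5 CPM summed over 19 windows on day 3 and 35.2, 34.0 and 33.7 CPM on day 7. The 3 libraries of day 7 lay close together and below all libraries of day 3. The log2 fold change was -0.48 ± 0.08 (SE; edgeR adjusted p = 0.216), against 0.06 in R26WT mice, and with each library left out it was between -0.51 and -0.45. With promoter share as a term it was -0.50. DESeq2 called Dll1 (DESeq2 adjusted p = 0.00121), so the verdict on this gene depended on the method.

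Dnajc6, which encodes the clathrin-uncoating cofactor auxilin, had 86.9, 82.4, 82.4 and 83.4 CPM on day 3 and 63.7, 66.6 and 65.6 CPM on day 7, at a log2 fold change of -0.36 ± 0.07 (SE). Vegfc, a lymphatic growth factor gene, had 14.4, 14.3, 15.5 and 14.4 CPM on day 3 and 8.12, 9.15 and 8.46 CPM on day 7, at -0.78 ± 0.15 (SE). For Dll1, Dnajc6 and Vegfc the days did not overlap and the libraries within a day lay close together. In R26WT mice, replicate 3 on day 7 stood at 14.3 CPM for Vegfc, near the R26TIR1(F74G) libraries of day 3, while the other 6 were between 6.41 and 9.85 CPM. Iftap had a log2 fold change of -0.36 and Plscr4, a phospholipid scramblase gene, -0.75. DESeq2 called Dnajc6, Vegfc, Iftap and Plscr4, with DESeq2 adjusted p of 0.00121, 0.00451, 0.003 and 0.00121.

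Sval2, Mup18, Pate13, Kcnab1 and Gm382 had the largest differences of the 20 genes, between -1.25 and -2.25. DESeq2 called each of them as well, and its smallest adjusted p over all genes, 2.84e-05, was that of Sval2. Mup18, a major urinary protein gene, had 47.6, 18.7, 37.2 and 28.5 CPM on day 3 and 12.6, 14.6 and 13.4 CPM on day 7, and 48.4 CPM in replicate 3 of the R26WT mice on day 7. Mup18, Sval2 and Pate13 belong to families of near-identical or similar genes, where reads can map to several copies, and how such reads were counted is not given in the sources used here. These values are therefore uncertain.

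Among genes with higher values on day 7, Cdk9, the kinase that releases paused RNA polymerase II, had 112, 125, 114 and 117 CPM on day 3 and 150, 135 and 139 CPM on day 7. Its log2 fold change was 0.26 ± 0.06 (SE; edgeR adjusted p = 0.287), against -0.16 in R26WT mice. Ms4a4b, a membrane protein gene of T cells, had 31.6, 32.5, 33.1 and 35.7 CPM on day 3 and 43.3, 41.8 and 42.4 CPM on day 7, at 0.35 ± 0.08 (SE), and it stayed at 0.35 with promoter share as a term. The other genes of this group were Tlcd1, Zfp692, H3f3b, Sirt4, Alyref2, Numa1 and Rsad1, with log2 fold changes between 0.22 and 0.39. DESeq2 called Cdk9, Tlcd1, Zfp692, H3f3b, Sirt4 and Alyref2 (DESeq2 adjusted p = 0.0446 for each), but not Ms4a4b, Numa1 or Rsad1.

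Plk1, a mitotic kinase gene, had 40.7, 44.5, 55.8 and 39.1 CPM on day 3 and 64.9, 57.3 and 62.8 CPM on day 7. All day 7 libraries lay above those of day 3, and the log2 fold change was 0.44 ± 0.11 (SE; edgeR adjusted p = 0.287). In R26WT mice it was -0.26, and the interaction of 0.71 had an edgeR adjusted p of 0.314.

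At the loci of Treg cell genes, no difference between days passed the test. These were Foxp3, the interleukin 2 receptor subunits Il2ra and Il2rb, the costimulatory receptors Tnfrsf4 and Tnfrsf18, the surface proteins Izumo1r and Lrrc32, the interleukin 7 receptor Il7r and the transcription factors Tcf7, Id2 and Sox4. None of the 11 gene sums had an unadjusted p under 0.05, where 10.7% of all genes did, and their median log2 fold change was 0.02, against -0.01 over all genes.

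The 3 windows of Foxp3, all within the gene on chromosome X, summed to 10.2, 12.8, 13.7 and 14.3 CPM on day 3 and 14.3, 16.7 and 16.8 CPM on day 7. The lowest library of day 7 and the highest of day 3 were level at this precision. The log2 fold change was 0.30, with a 95% interval from -0.02 to 0.63 and an unadjusted edgeR p of 0.0615. R26WT mice had 15.2 to 16.8 CPM on day 3 and 16.3 to 19.4 CPM on day 7. Since the ligand acts on the Foxp3 protein, these values do not check whether it was degraded.

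Il2ra had 285, 240, 278 and 269 CPM on day 3 and 254, 250 and 250 CPM on day 7 over 53 windows, and the days overlapped. Its log2 fold change of -0.09 had an interval from -0.22 to 0.03, against -0.11 to 0.12 in R26WT mice. Lrrc32, which encodes the TGF-beta carrier GARP, had an interval from -0.10 to 0.13, and Izumo1r one from -0.15 to 0.06. For Il7r, Tcf7, Id2 and Sox4 the intervals lay between -0.17 and 0.14. The widest intervals besides Foxp3 were those of Tnfrsf4 (-0.14 to 0.34) and Il2rb (-0.12 to 0.22).

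The most accessible window of each of the 11 genes gave the same picture. The lowest unadjusted p were 0.0501 for Tnfrsf4 (log2 fold change 0.30) and 0.0542 for Foxp3 (0.30), and the other 9 lay between -0.14 and 0.19. The Foxp3 window (chrX:7583914-7584115) had 7.19, 6.65, 7.53 and 8.12 CPM on day 3 and 7.75, 9.89 and 9.61 CPM on day 7, with an overlap at replicate 1 of day 7.

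**Figure D4:**
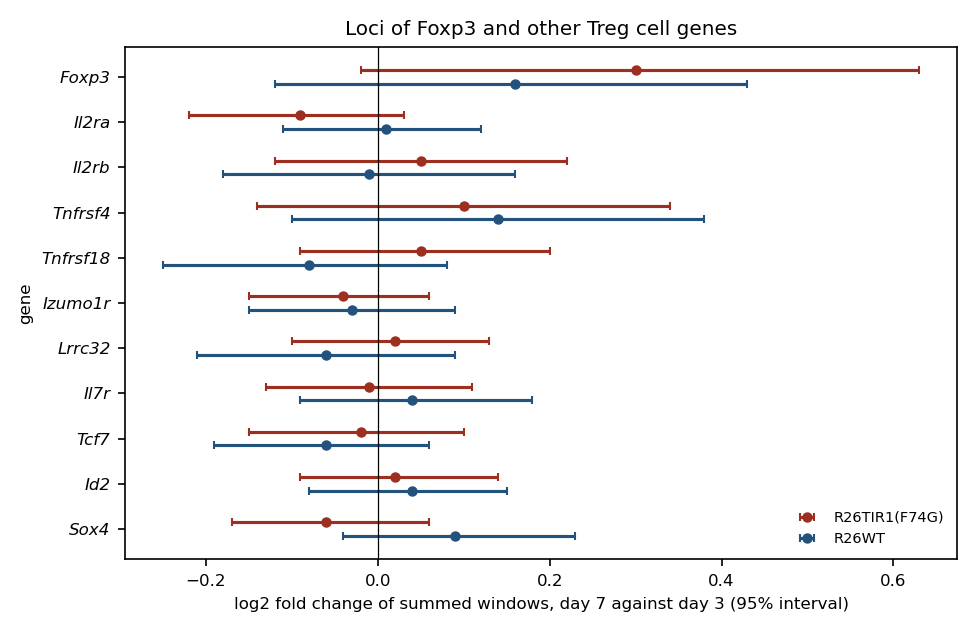
Log2 fold change of summed windows between day 7 and day 3 (horizontal axis) for 11 genes, with 95% intervals, in R26TIR1(F74G) (red) and R26WT (blue) mice. Every R26TIR1(F74G) interval includes 0, and Foxp3 has the widest, from -0.02 to 0.63.

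Lists of genes were described by counts at an unadjusted p under 0.05, to be read against 4.64% of all genes higher and 6.08% lower on day 7. With promoter share as a term, the counts over all genes fell to 300 higher and 448 lower (4.69%). With each library left out, between 398 and 1109 of all genes were higher and between 507 and 1209 lower. Counts of a list in those fits are to be read against these. No gene of any list passed the test. Of 35 genes whose transcripts the study lists as lower after Foxp3 degradation, 1 was higher (Ccr2) and 3 lower on day 7 (Rcn1, Serinc3 and Slc14a1), and of 24 listed as higher, 1 was higher (Rasgrp2) and 1 lower (Il17a). Their medians were 0.02 and -0.04. These lists were drawn from transcripts of the same study, and both are incomplete here.

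Of 16 Treg identity genes, 0 were higher or lower, with log2 fold changes between -0.19 and 0.30 and a median of 0.00. The lowest p on the lower side were those of Itgae (-0.19), the alpha E integrin, and Nrp1 (-0.10), a marker of thymic Treg cells, and on the higher side, after Foxp3, that of Gpr83 (0.08). Of 12 genes of resting Treg cells, Klf2 was higher (0.17 ± 0.07, SE) and 0 lower.

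Of 20 activated Treg cell genes, 2 were higher and 5 lower (35%, against 10.7% of all genes). The lower ones were Klrg1, Ccr4, Il10, Irf4 and Pdcd1, and the higher ones were Ccr2 and Tnfrsf9. Klrg1, an inhibitory receptor of terminally differentiated cells, had 13.4, 15.5, 18.8 and 15.3 CPM on day 3 and 12.6, 11.1 and 11 CPM on day 7. The days did not overlap, and the log2 fold change was -0.46 ± 0.15 (SE; edgeR adjusted p = 0.357). Il10, an inhibitory cytokine gene, had 28.2, 22.1, 29.8 and 23.4 CPM on day 3 and 20.9, 22.6 and 18.2 CPM on day 7, at -0.32 ± 0.13 (SE). Ccr2, a chemokine receptor, was on the other side, with 46.8, 47.0, 52.5 and 42.2 CPM on day 3 and 57.9, 53.7 and 56.4 CPM on day 7. The median of the list was -0.02. Of its 604 windows, 24 were higher and 21 lower at an unadjusted p under 0.05 (7.45%, against 6.96% of all windows). With start sites within 2 kb, 0 of 16 genes were higher and 1 lower (6.25%, against 10.8% of all genes). The higher share therefore held for the sums over 100 kb and not for single windows or sums near start sites. With each library left out, between 1 and 5 genes of the list were lower. With promoter share as a term 0 were, in a fit where only 4.69% of all genes had an unadjusted p under 0.05.

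Early response genes, which are induced within minutes of T cell stimulation, had 6 higher and 0 lower of 20. These were Jund, Egr1, Junb, Dusp1, Ier2 and Zfp36, with log2 fold changes between 0.14 and 0.25. Jund had 167, 224, 165 and 201 CPM on day 3 and 226, 219 and 238 CPM on day 7, so that replicate 2 of day 3 lay within the range of day 7. Its log2 fold change was 0.25 ± 0.09 (SE; edgeR adjusted p = 0.358) and -0.02 in R26WT mice. With promoter share as a term, Jund stood at 0.07 and the list had 0 higher and 1 lower. With each library left out, between 1 and 7 were higher. The median over the list was 0.04. Heat shock genes had 1 higher of 12, Hsp90ab1 at 0.20, and a median of 0.09 in R26TIR1(F74G) mice and -0.19 in R26WT mice. In the fit with promoter share, 0 were higher and 3 lower, the median was -0.10 and Hsp90ab1 stood at 0.02.

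Of 22 cell cycle genes, Plk1 and Mcm7 were higher and 0 lower. Mcm7, a subunit of the replicative helicase, had 75.2, 78.3, 67.0 and 73.1 CPM on day 3 and 90.6, 82.3 and 86.0 CPM on day 7, at 0.23 ± 0.07 (SE). Of 17 interferon response genes, Irf7 and Irf1 were higher and Ifi44, Ifit3 and Oas2 lower. Ifi44 had 7.29, 10.2, 7.19 and 8.60 CPM on day 3 and 5.59, 5.90 and 4.71 CPM on day 7, at -0.64 ± 0.20 (SE), and -0.80 with promoter share as a term. Irf7 and Irf1 encode transcription factors of the response. In R26WT mice Irf7 stood at 0.19, as in R26TIR1(F74G) mice (0.18). In the fit with promoter share, the list had 0 higher and 1 lower and Irf1 went from 0.14 to 0.06.

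Among IL-2 and STAT5 signalling genes, Socs2, a feedback inhibitor of cytokine receptors, had 90.3, 102, 110 and 99.5 CPM on day 3 and 80.6, 86.6 and 83.0 CPM on day 7. The days did not overlap, and its log2 fold change was -0.28 ± 0.07 (SE; edgeR adjusted p = 0.321), against 0.02 in R26WT mice. Mcl1, a survival gene, was higher at 0.19, and 2 of 17 genes of the list had an unadjusted p under 0.05. Of 14 NF-kB pathway genes, Rela and Nfkbid were higher and 0 lower. Of 19 homing and adhesion genes, Ccr2 was higher and Ccr4 lower. Of 8 helper lineage factors, Runx3 was higher, and of 13 effector cytokines Il17a was lower at -0.75, with 18.6, 8.10, 24.3 and 8.96 CPM on day 3 and 5.30, 10.8 and 10.2 CPM on day 7, which overlap. This sum stood at 0.03 with promoter share as a term.

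Of 17 circadian clock genes, Tef was higher and Hlf lower. Hlf, a clock-controlled transcription factor gene, had 61.6, 58.6, 63.8 and 52.9 CPM on day 3 and 40.3, 52.9 and 43.7 CPM on day 7 in R26TIR1(F74G) mice. In R26WT mice it had 45.4, 46.8, 38.8 and 38.5 CPM on day 3 and 48.3, 56.2 and 71.3 CPM on day 7. The days were in opposite order in the 2 genotypes, at -0.38 ± 0.10 (SE) and 0.45, and the interaction of -0.82 had an unadjusted p of 4.48e-05 and an edgeR adjusted p of 0.306. The time of day at which mice were taken is not given in the labels.

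Sums over markers of other cells overlapped between days. Summed accessibility over 8 B cell markers was between 133 and 165 CPM on day 3 and between 142 and 150 CPM on day 7, and over 7 myeloid markers between 102 and 121 CPM and between 100 and 112 CPM. Of these 15 genes, Cebpa was lower (-0.45) at an unadjusted p under 0.05. Over 5 NK cell markers, of which Klrb1c gave most of the counts, the sum was between 391 and 427 CPM on day 3 and between 426 and 453 CPM on day 7, and Klrb1c was higher at 0.11. Of 2 CD8 T cell markers, 0 were higher or lower. The part of other cells in any of the differences above was not tested.

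**Figure D5:**
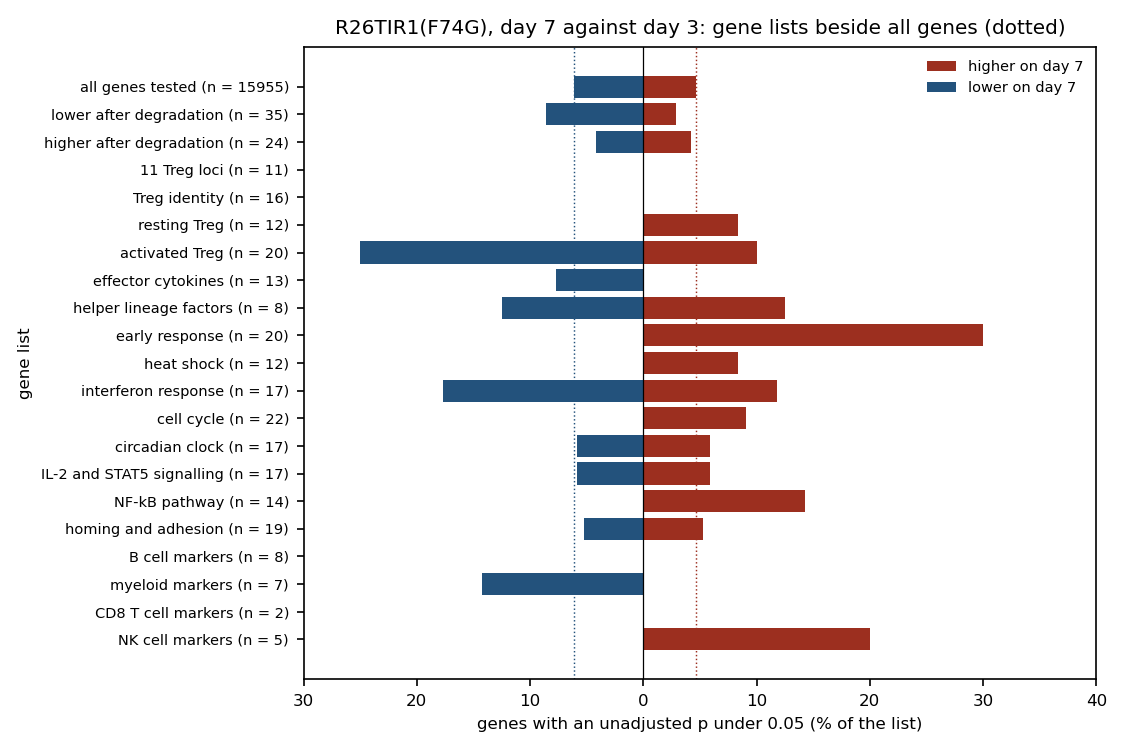
Share of the genes in each list with an unadjusted p under 0.05, higher (right) or lower (left) on day 7 than on day 3 in R26TIR1(F74G) mice, with the number of genes tested. Dotted lines are the shares over all 15955 genes, 4.64% and 6.08%. Early response genes reach furthest to the right (6 of 20) and activated Treg cell genes furthest to the left (5 of 20).

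The fold changes between days were set side by side for the 2 genotypes. Over 66750 windows averaging 50 counts or more, their SD was 0.18 (log2) in R26TIR1(F74G) mice and 0.18 in R26WT mice, and the log2 fold changes of the 2 genotypes, which share no library, correlated at r = 0.04 (rho = 0.03) across windows. Over 14758 genes, the SD was 0.17 and 0.14, and r was -0.21 (rho = -0.15) across genes. Windows and genes are not independent replicates.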

How the data were processed

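ATAC-seq libraries of Treg cells were sequenced by the authors, aligned to mm10 with Bowtie2, peaks were called with MACS2, and reads were counted with featureCounts over merged peaks. The deposited values are raw counts in windows of 201 bases, with 14 columns, all assigned to samples and 0 left unused. How duplicate and multi-mapping reads were treated is not given in the sources used here. PCR reads are not independent molecules, so limits set from counts cover counting error only.

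Windows averaging 10 counts or more in the libraries compared were fitted with edgeR 4.0.16 (TMM factors, quasi-likelihood F test, Benjamini-Hochberg adjustment, threshold 0.05) in R 4.3.3, with only the libraries of 1 genotype in each comparison of days and all 14 in the interaction. CPM values use TMM factors over 14 libraries. The SE of a log2 fold change is the one its F statistic implies. DESeq2 1.42.0 was an alternative. Gene sums add all windows whose nearest coding start site (RefSeq, GRCm38.p6) lies within 100 kb. The scripts were tested on simulated counts.

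Windows and genes were named as the 10 in each direction that passed the test or, where fewer passed, by the smallest unadjusted p, with 1 window for each region of overlapping windows. For 11 genes of the study, the most accessible window and the gene sum were given. For the other lists, the genes with the 2 smallest p in each direction were given, and the remaining list members with an unadjusted p under 0.05 were added after their values were seen. Members and lists were chosen with earlier results of these data known. Alternatives were total counts, DESeq2 size factors, loess offsets, other filters and distances, promoter share or mouse name prefix as a term, a replicate block, and each library left out. The promoter share as a term in the R26WT and interaction fits, and the fit without the least deep library of each genotype, were added after seeing the data. Promoter sequences are from RefSeq (GRCm38.p6). Sequences of the windows themselves are not analysed here. Values of a few genes are not reported here.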

Additional observations from a re-analysis of the deposited data

Results flagged for a closer look

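In 4 of 130 groups of 4 libraries examined, 1 library stood apart from the other 3 by Dixon's criterion at the 95% level, where chance alone gives about 1 in 20 (6.5 groups). The window near Wnt5a, within Erc2, had 3.6 CPM in replicate 1 of R26TIR1(F74G) on day 3, against 1.27 to 1.53 CPM in the others. The summed windows of Tlcd1 had 53.7 CPM in replicate 3 of R26TIR1(F74G) on day 3, against 62.9 to 64.1 CPM. The summed windows of Vegfc had 15.5 CPM in the same library, against 14.3 to 14.4 CPM. The summed windows of Tnfrsf4 had 50.7 CPM in replicate 4 of R26WT on day 3, against 46.6 to 47.0 CPM.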

How the results depend on the processing

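Of 127 single windows and genes followed, 23 changed sign under at least 1 alternative, and none of the 40 named by their p did. Those 40 were chosen for a small p in these same libraries, so their keeping a sign follows from the choice and is no separate check. The number of called windows in R26TIR1(F74G) mice, 0 as reported, was 2 with DESeq2, 37 at a threshold of 0.1 and between 0 and 364 with each library left out (364 without replicate 2 of day 3). In R26WT mice it was 7 as reported, 0 with DESeq2, 4 with loess offsets, 4 with a mean count of at least 50 and between 0 and 57 with each library left out (57 without replicate 1 of day 7). For the interaction it was 0 as reported and between 0 and 19 with each library left out (19 without replicate 1 of R26WT on day 7, 4 without replicate 2 of R26TIR1(F74G) on day 3). Called genes in R26TIR1(F74G) mice were 0 as reported, 48 with DESeq2 and between 0 and 13 with each library left out, and for the interaction 7 with DESeq2. The cause was not tested.

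With a replicate block, 62 windows (0 higher and 62 lower on day 7) and 8 genes were called in R26TIR1(F74G) mice and 16 windows in R26WT mice. The numbers do not pair the samples, since the deviations of same-numbered R26TIR1(F74G) libraries from their group means correlated at -0.0142, -0.174 and -0.0381. With the block, the sum of Pax5 turned to -0.08 and the Id2 window to -0.01.

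Of the values that changed sign, the sum of Il17a moved most, from -0.75 as reported to 0.03 with promoter share as a term. With promoter share as a term, the windows of Il2ra, Tcf7 and Id2 stood at 0.11, 0.05 and -0.12, and the sums of Il2rb, Il7r, Id2, Il17a, S1pr1, Tyms, Birc3, Cd8b1 and Ncr1 at -0.04, 0.07, -0.01, 0.03, 0.04, 0.02, 0.06, -0.0034 and 0.18. With loess offsets, the windows of Id2 and Sox4 stood at -0.09 and -0.08 and the sum of Ncr1 at 0.07. With a mean count of at least 50, those windows stood at -0.08 and -0.07, and with total counts at -0.04 and -0.02. The Id2 window was -0.0009 with no filter and -0.0004 with a term for the prefix of mouse names, where the sum of Il7r was 0.0017. With start sites within 2 kb, the sums of Il2ra, Il2rb, Tnfrsf4, Tcf7, S1pr1 and Cd8b1 were 0.09, -0.21, -0.10, 0.04, 0.09 and -0.02, and within 1 Mb that of Id2 was -0.11.

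With each library left out, the windows ranged from -0.26 to 0.01 (Izumo1r), -0.09 to 0.02 (Tcf7), -0.08 to 0.07 (Id2) and -0.05 to 0.08 (Sox4). The sums ranged from -0.0045 to 0.10 (Il2rb), -0.02 to 0.07 (Lrrc32), -0.04 to 0.03 (Il7r), -0.05 to 0.03 (Tcf7), -0.03 to 0.06 (Id2), -0.03 to 0.02 (S1pr1), -0.10 to 0.02 (Nr4a2), -0.07 to 0.02 (Nr4a1), -0.22 to 0.10 (Bag3), -0.08 to 0.01 (Birc3), -0.11 to 0.41 (Cd22), -0.14 to 0.27 (Pax5), -0.0014 to 0.10 (Cd8b1) and -0.34 to 0.12 (Ncr1). Depth limits windows with a mean count under 20, whose median interval reached 0.77 (log2) to either side.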
